A study of Mus musculus with 47 samples.

Results

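The genes described here are 10 serotonin receptor genes of the mouse, Htr1a, Htr1b, Htr2a, Htr2c, Htr3a, Htr4, Htr5a, Htr5b, Htr6 and Htr7, chosen by symbol among the 55416 gene identifiers of the count tables. All 10 were present and passed the filter on low counts in both sexes. RNA came from brains of homozygous 3xTg mice, in which mutant APP and tau transgenes are driven by neuronal Thy1 elements beside a mutant presenilin allele, so that every group, Control included, carried all 3 changes. Mice were 6 months old when placed on an amino acid-defined Control diet or on that diet lowered in 1 branched-chain amino acid, which was isoleucine in IleR, leucine in LeuR and valine in ValR. They had been 9 months on it, at 15 months of age, when brains were collected. The question was whether the expression of these receptors differed between each restricted diet and Control, in males and females apart. Among males there were 4 Control, 3 IleR, 3 LeuR and 4 ValR libraries. Among females there were 6 for each of Control, LeuR and ValR, and 5 for IleR. The study's methods name the left hemisphere, its results name whole brain, and an extraction label names liver. The libraries held abundant brain transcripts: 6 neuronal markers together gave at least 3540 CPM in every library (counts scaled to a common library size, with the trimmed mean of M values, TMM).

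Serotonin reaches nearly all of the brain from a small group of raphe neurons in the brainstem, and what it does in a region depends on which receptors that region carries. Receptors of the Htr1 and Htr5 genes couple to inhibitory G proteins and lower cyclic AMP, those of the Htr2 genes couple to Gq and phospholipase C, and those of Htr4, Htr6 and Htr7 raise cyclic AMP through Gs. Htr3a encodes the subunit that every serotonin-gated cation channel needs. Their regions differ as well: Htr2a is a receptor of cortical pyramidal cells, Htr6 is rich in striatum, cortex and hippocampus, Htr3a in the brain marks a class of interneurons, and Htr2c is the receptor of choroid plexus epithelium as well as of many neurons.

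The sequence just upstream of 3 receptor genes is shown because these genes, which lie on different chromosomes, each fell in males with both IleR and ValR. Each is read from RefSeq on build GRCm38.p6 in the direction of transcription, and it ends 1 base before the outermost annotated start. Capitals mark matches to GGGCGG, the GC box, on either strand, with overlapping matches joined. The Htr2a window is chr14:74640624-74640839 on the plus strand, the Htr5a window is chr5:27841697-27841946 on the plus strand, and the Htr6 window is chr4:139075571-139075820 on the minus strand.
Htr2a: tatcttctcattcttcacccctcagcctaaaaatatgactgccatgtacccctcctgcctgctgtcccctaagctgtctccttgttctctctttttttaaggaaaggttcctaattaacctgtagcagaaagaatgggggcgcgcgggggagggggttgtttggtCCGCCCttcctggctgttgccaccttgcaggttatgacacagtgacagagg
Htr5a: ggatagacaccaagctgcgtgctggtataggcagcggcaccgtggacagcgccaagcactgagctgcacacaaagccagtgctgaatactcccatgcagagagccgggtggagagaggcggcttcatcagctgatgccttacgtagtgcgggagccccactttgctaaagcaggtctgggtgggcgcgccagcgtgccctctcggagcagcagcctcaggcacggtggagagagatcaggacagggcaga
Htr6: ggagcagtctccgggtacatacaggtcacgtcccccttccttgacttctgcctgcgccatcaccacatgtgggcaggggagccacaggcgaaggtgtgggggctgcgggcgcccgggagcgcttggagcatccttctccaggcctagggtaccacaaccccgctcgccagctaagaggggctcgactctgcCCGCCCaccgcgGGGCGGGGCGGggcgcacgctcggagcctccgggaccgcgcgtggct
The Htr6 window held 3 matches, the Htr2a window 1 and the Htr5a window 0. Over all 32817 promoters of the table, 32.7% held at least 1 match in a window of 250 bases, and 27.9% in 216 bases, the length shown for Htr2a. None of the 3 windows held TATAAA on either strand, which was in 12.4% of all windows of 250 bases and 9.8% of those of 216. None held CCAAT, which was in 33.8% and 30.5%. None held the cyclic AMP response element TGACGTCA, which was in 1.55% and 1.11%. GC content was 51.4% for Htr2a, 62% for Htr5a and 70.8% for Htr6, against medians of 51.9% in windows of 216 bases and 52.4% in those of 250. These matches describe the letters alone.

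The genes of the 10 receptors lie on 8 autosomes and the X chromosome by GENCODE M21, which annotates this build. Htr2a spans bases 74640840 to 74709494 of chromosome 14, Htr5a bases 27842149 to 27855088 of chromosome 5, Htr6 bases 139061108 to 139075570 of chromosome 4, and Htr2c bases 146962513 to 147197277 of chromosome X. Some values are uncertain because genes overlap: the libraries were made with a stranded kit, but whether counting used the strand was not stated. Htr1b overlaps the antisense gene D430036J16Rik, Htr3a overlaps the antisense gene Gm32335, Htr5b overlaps the pseudogene Gm8217 on the opposite strand, and Htr2c hosts 8 small RNA genes.

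Total counts per library ranged from 12682687 to 25722333 in males and from 10672599 to 21370973 in females. The libraries also differed in the brain regions they held, read from marker lists as summed CPM. In males the 9 cerebellum markers summed to 20.9 to 55 CPM in Control and 136 to 4140 CPM in the restricted diets, and the 8 brainstem and spinal cord markers to 0.279 to 8.91 CPM and 2.37 to 648 CPM. In male Control libraries, Hoxa5, Hoxb5 and Hoxc4 of the latter list were at 0. The 8 cortex and pallium markers summed to 705 to 1900 CPM in Control and 27.5 to 365 CPM in the restricted diets, and the 7 striatal markers to 98.3 to 1260 CPM and 96.5 to 192 CPM. The 6 neuronal markers summed to 4430 to 6330 CPM in male Control and to 3590 to 4420 CPM in the restricted males, with no overlap, and the 6 oligodendrocyte markers to 4560 to 9560 CPM and 6430 to 18000 CPM, with overlap. The 5 astrocyte markers summed to 1150 to 1720 CPM in male Control, 1980 to 2450 in IleR, 1320 to 2070 in LeuR and 1940 to 2480 in ValR, so that IleR and ValR lay above Control. The 6 microglia markers summed to 248 to 285 CPM in Control, 170 to 264 in IleR, 203 to 231 in LeuR and 140 to 227 in ValR, so that LeuR and ValR lay below Control. In females the neuronal markers were at 4030 to 6170 CPM in Control and 3540 to 6440 CPM in the restricted diets. A hindbrain score, which subtracts the mean log2 CPM of cortex markers from that of cerebellum and brainstem markers together, was -7.31 ± 1.1 (SD, n = 4) in male Control and 3.08 ± 2.94 (SD, n = 10) in the restricted males, with no overlap (two-sided exact permutation test over libraries, p = 0.000999, the smallest that 1001 arrangements allow, adjusted p = 0.003 over 3 scores). A striatal score, the mean log2 CPM of the 7 striatal markers, was 4.7 ± 1.72 (SD, n = 4) in Control and 2.19 ± 0.87 (SD, n = 10) in the restricted males, with overlap (exact permutation p = 0.005, adjusted p = 0.0075), and a choroid plexus score was 2.59 ± 2.74 and 4.16 ± 1.94 (exact permutation p = 0.243). In males, then, hindbrain content, neuronal marker level and diet cannot be told apart by comparing Control with a restricted diet, and every male difference below stands beside these values. The part of striatal content in them was not tested. In bulk RNA, fewer cells of a type and less RNA per cell cannot be told apart either.

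Per kilobase of annotated exon and over all diets, Htr2c had the highest mean of the 10 receptors in both sexes, at 8.14 ± 3.82 CPM per kb in males (SD, n = 14) and 6.39 ± 2.97 CPM per kb in females (SD, n = 23). It was the highest of the 10 in 9 of 14 male and 9 of 23 female libraries. This order was not the same in every group, and its relation to diet was not tested. In Control, Htr2c and Htr2a did not differ beyond their spread. They were at 5.67 ± 3.48 and 5.57 ± 2.94 CPM per kb in males (SD, n = 4). In Control females they were at 6.11 ± 3.92 and 6.21 ± 3.69 (SD, n = 6). In the restricted males Htr2c ranged from a mean of 6.5 CPM per kb with ValR to 11.6 with LeuR, and Htr2a from 1.3 with ValR to 3 with LeuR. Htr2a, Htr1b and Htr1a followed in females at 4.79 ± 2.97, 4.5 ± 1.97 and 4.2 ± 1.55 CPM per kb, and neighbours in this order did not differ beyond their spread, since Htr2a was above Htr1b in 13 of 23 libraries and Htr1b above Htr1a in 11. Htr5a at 3.11 ± 0.972 and Htr7 at 2.95 ± 1.29 CPM per kb were likewise interleaved, with Htr5a higher in 12 of 23 libraries. Htr3a reached 2.27 ± 1.1 CPM per kb and was above Htr6, at 1.4 ± 0.645, in 20 of 23 libraries. Htr5b and Htr4 were lowest at 0.83 ± 0.762 and 0.712 ± 0.488 CPM per kb. In males Htr2a was at 2.96 ± 2.34 CPM per kb, and the 3 lowest were again Htr6, Htr5b and Htr4 at 0.857 ± 0.575, 0.506 ± 0.463 and 0.497 ± 0.274 CPM per kb. Exon length here is the union of all annotated exons of a gene, not of the transcripts these brains used.

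**Figure D1:**
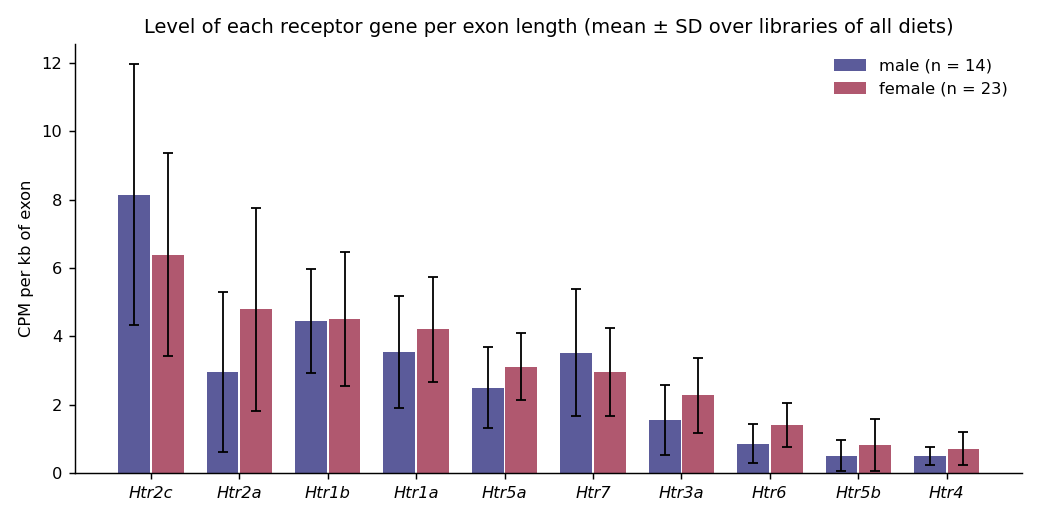
Mean level of each receptor gene in CPM per kb of exon (bars, starting at 0; error bars, SD over libraries of all 4 diets) in 14 male and 23 female libraries. Htr2c is the highest bar in both sexes, at 8.14 and 6.39 CPM per kb, and most neighbouring bars overlap within their SD.

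In males, the receptors that passed the test against Control were all lower on the restricted diets. With IleR 3 of 10 fell (Htr2a, Htr5a and Htr6), with LeuR 1 fell (Htr5a) and with ValR 4 fell (Htr2a, Htr4, Htr5a and Htr6), as tested with edgeR (quasi-likelihood, p-values adjusted by Benjamini-Hochberg over 22197 genes, threshold 0.05). None rose. Of all genes tested, 15.3% were called with IleR (8.68% lower), 10.1% with LeuR (6.33% lower) and 23.5% with ValR (12.4% lower). The median log2 fold change of the 10 receptors was -0.91 with IleR, -0.29 with LeuR and -1.3 with ValR, where that of all genes was 0.04, 0.05 and 0.03. All 3 comparisons share the same 4 Control libraries, so that their shared direction is not independent.

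Htr5a, an inhibitory receptor of forebrain and other neurons, was the member that fell on every restricted diet. Its level was 24.4, 22.4, 17.7 and 23.9 CPM in Control 1, 3, 4 and 5. It was 9.75, 10.5 and 7.7 CPM in IleR 13, 14 and 17, 9.04, 10.5 and 17.6 CPM in LeuR 19, 20 and 21, and 8.28, 12.1, 6.55 and 8.03 CPM in ValR 7, 9, 10 and 12. All 10 restricted libraries lay below all 4 Control libraries, with LeuR 21 the nearest to Control 4. Every IleR library lay below every Control library for 14.5% of all genes, every LeuR library for 9.48% and every ValR library for 13.6%. The log2 fold change was -1.25 (SE 0.25, adjusted p = 0.00521) with IleR, -0.84 (SE 0.25, adjusted p = 0.0466) with LeuR and -1.34 (SE 0.23, adjusted p = 0.00104) with ValR, so that it fell by 57.8%, fell by 44% and fell by 60.4%. With the hindbrain score as a covariate, the values were -0.09, -0.04 and 0.06, and none was called (edgeR, adjusted p = 0.971, 0.988 and 0.986). The LeuR call was lost with a choroid plexus score (the mean log2 CPM of 8 markers) as a covariate, an alternative chosen after seeing the data (adjusted p = 0.0631), with scaling to library totals (0.0706), with only the 2 groups fitted (0.119) and without any 1 of Control 1, Control 3, Control 5, IleR 13, IleR 14, LeuR 19, LeuR 20, ValR 7 or ValR 12, with adjusted p between 0.0553 and 0.193.

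Its relative Htr5b was scarce, with 5 to 63 counts per male library, and did not pass the test. Control held 0.749, 3.73, 1.53 and 1.4 CPM, IleR 0.435, 0.64 and 0.415 CPM, LeuR 0.806, 0.768 and 0.395 CPM, and ValR 1.51, 0.607, 0.413 and 0.319 CPM. Control 3 was far above the rest, and only IleR lay wholly below Control, as for 14.5% of all genes. Log2 fold changes were -1.87, -1.49 and -1.39 (adjusted p = 0.0532, 0.127 and 0.082). These values lay near the threshold under other settings: with IleR it was called by DESeq2 (adjusted p = 0.0177) and with the filter filterByExpr of edgeR (0.0464), and with the choroid plexus score as a covariate it was called on all 3 diets (edgeR, adjusted p = 0.0142, 0.0456 and 0.0203). It was also called with IleR without Control 1 (edgeR, adjusted p = 0.0394) and, without ValR 7, with IleR and ValR (0.0355 and 0.0209).

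Among the receptors of the Htr1 class, Htr1a, the main autoreceptor of raphe neurons and an inhibitory receptor of hippocampus and cortex, showed no call. It ranged from 10.3 to 32.4 CPM in Control, from 9.6 to 16.1 in IleR, from 20.5 to 23.8 in LeuR and from 4.21 to 18.1 in ValR. LeuR lay in the upper part of the Control range, and all groups overlapped Control. Htr1b, a receptor of axon terminals, had 39.2 CPM in Control 1 and 11.2 to 19.1 CPM in the other 3 Control libraries, against 15.5 to 28.2 CPM over the 10 restricted libraries. Its log2 fold changes were -0.02, 0.21 and 0.07 (SE 0.34 to 0.36), the smallest differences of the 10 receptors with IleR and LeuR.

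Htr2a, the Gq-coupled receptor at which classical hallucinogens act, fell with IleR and ValR. Control libraries held 54.7, 25.3, 16.3 and 28.6 CPM. IleR held 11.9, 9.98 and 5.92 CPM, LeuR 18, 14.8 and 17.8 CPM, and ValR 6.98, 11.4, 7.2 and 3.57 CPM. IleR and ValR lay wholly below Control, as for 14.5% and 13.6% of all genes, while LeuR overlapped the lowest Control library, Control 4. The log2 fold change was -1.75 (SE 0.41, adjusted p = 0.0121) with IleR, -0.89 (SE 0.4, adjusted p = 0.168) with LeuR and -2.1 (SE 0.38, adjusted p = 0.00153) with ValR, the last a level 0.233 times that of Control. Without IleR 17 the IleR value was -1.53 and no longer called (adjusted p = 0.0622). With the hindbrain score as a covariate, the IleR and ValR values were -1.32 and -1.57, and neither was called (edgeR, adjusted p = 0.741 and 0.71).

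Htr2c, its Gq-coupled relative, was called on no diet. Its levels were 47.1, 19.7, 97.6 and 47.2 CPM in Control, 108, 110 and 66.4 CPM in IleR, 144, 71.6 and 108 CPM in LeuR, and 70.2, 93, 52.2 and 27.3 CPM in ValR. The groups overlapped, and log2 fold changes were 0.84, 1.03 and 0.2 (adjusted p = 0.245, 0.166 and 0.797). Without Control 4 it was called with IleR (edgeR, 1.32, adjusted p = 0.0482) and LeuR (1.51, adjusted p = 0.03). Choroid plexus markers were called in none of the 3 male comparisons (0 of 8 markers) and summed to 15 to 3050 CPM in Control and 21.6 to 4940 CPM in the restricted diets.

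Of the 3 cyclic AMP-raising receptors, Htr6 fell with IleR and ValR, Htr4 fell with ValR and Htr7 was called on no diet. Htr6 was at 5.11, 3.85, 2.86 and 3.46 CPM in Control, at 1.3, 1.09 and 0.652 CPM in IleR, at 1.07, 1.54 and 2.48 CPM in LeuR, and at 1.58, 1.42, 1.06 and 0.637 CPM in ValR. All 10 restricted libraries were below all 4 Control libraries. Taking each diet alone, this was so for 14.5% of all genes with IleR, 9.48% with LeuR and 13.6% with ValR. Htr6 fell with IleR (log2 fold change -1.9, SE 0.39, adjusted p = 0.00593) and ValR (-1.7, SE 0.35, adjusted p = 0.00363), and with LeuR it was at -1.17 (SE 0.38, adjusted p = 0.0643). With the hindbrain score as a covariate, the IleR and ValR values were -0.52 and 0 and were not called. The LeuR value was called by DESeq2 (-1.18, adjusted p = 0.0141) and limma voom (-1.23, adjusted p = 0.0342), and by edgeR without Control 4 (0.041) or LeuR 21 (0.0273).

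Htr4 was at 3.88, 2.07, 4.26 and 1.23 CPM in Control and at 1.08, 1.48, 0.944 and 1.21 CPM in ValR, the group of lowest spread. IleR, at 3.48, 1.73 and 1.96 CPM, and LeuR, at 2.78, 2.77 and 5.25 CPM, lay within or above the Control range. Only ValR passed, at -1.27 (SE 0.41, adjusted p = 0.0368), although Control 5 lay inside the ValR range. This call rests on 15 to 22 counts per ValR library, and it was lost with limma voom (adjusted p = 0.108), with scaling to library totals (0.0511), with the choroid plexus score as a covariate (log2 fold change -0.94, adjusted p = 0.0688), with the hindbrain score as a covariate (-0.03, adjusted p = 0.997) and without any 1 of Control 1, Control 4, ValR 7, ValR 10 or ValR 12 (adjusted p = 0.0758 to 0.104).

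Htr7 was at 6.81, 8.17, 14.4 and 7.6 CPM in Control and 19.5, 12.9 and 28.4 CPM in LeuR, where its log2 fold change of 1.13 (SE 0.4) did not pass (adjusted p = 0.0887). LeuR 20 lay under Control 4, so these groups overlapped. With IleR (5.75 to 13.2 CPM) and ValR (4.46 to 14.5 CPM) its log2 fold changes were 0.16 and 0.07. LeuR 21, the library of highest Htr7, also held 714 CPM of 8 hypothalamus markers, where no other male library held more than 7.14 CPM. Without it the LeuR value of Htr7 was 0.83 (adjusted p = 0.227). The value was called by DESeq2 (1.12, adjusted p = 0.0409) and by edgeR without Control 4 (1.43, adjusted p = 0.0308).

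Htr3a, the channel subunit, was at 5.52, 6.45, 4.39 and 6.2 CPM in Control. It was at 3.1, 1.02 and 0.178 CPM in IleR, at 1.92, 4.92 and 3.1 CPM in LeuR, and at 1.66, 4.45, 1.18 and 0.765 CPM in ValR. IleR lay wholly below Control, as for 14.5% of all genes, and IleR 17 held just 3 counts. The log2 fold changes of -1.99, -0.78 and -1.49 had wide errors (SE 0.71, 0.67 and 0.63) and did not pass (adjusted p = 0.0769, 0.491 and 0.107). Other settings called it. With IleR these were DESeq2 (adjusted p = 0.0209), limma voom (-2.68, adjusted p = 0.0169), edgeR without IleR 13 (-3.16, adjusted p = 0.0214) and edgeR without ValR 9 (adjusted p = 0.0484). With ValR they were limma voom (adjusted p = 0.0308), edgeR with only the 2 groups (adjusted p = 0.0477) and edgeR without ValR 9 (-2.23, adjusted p = 0.0243).

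**Figure D2:**
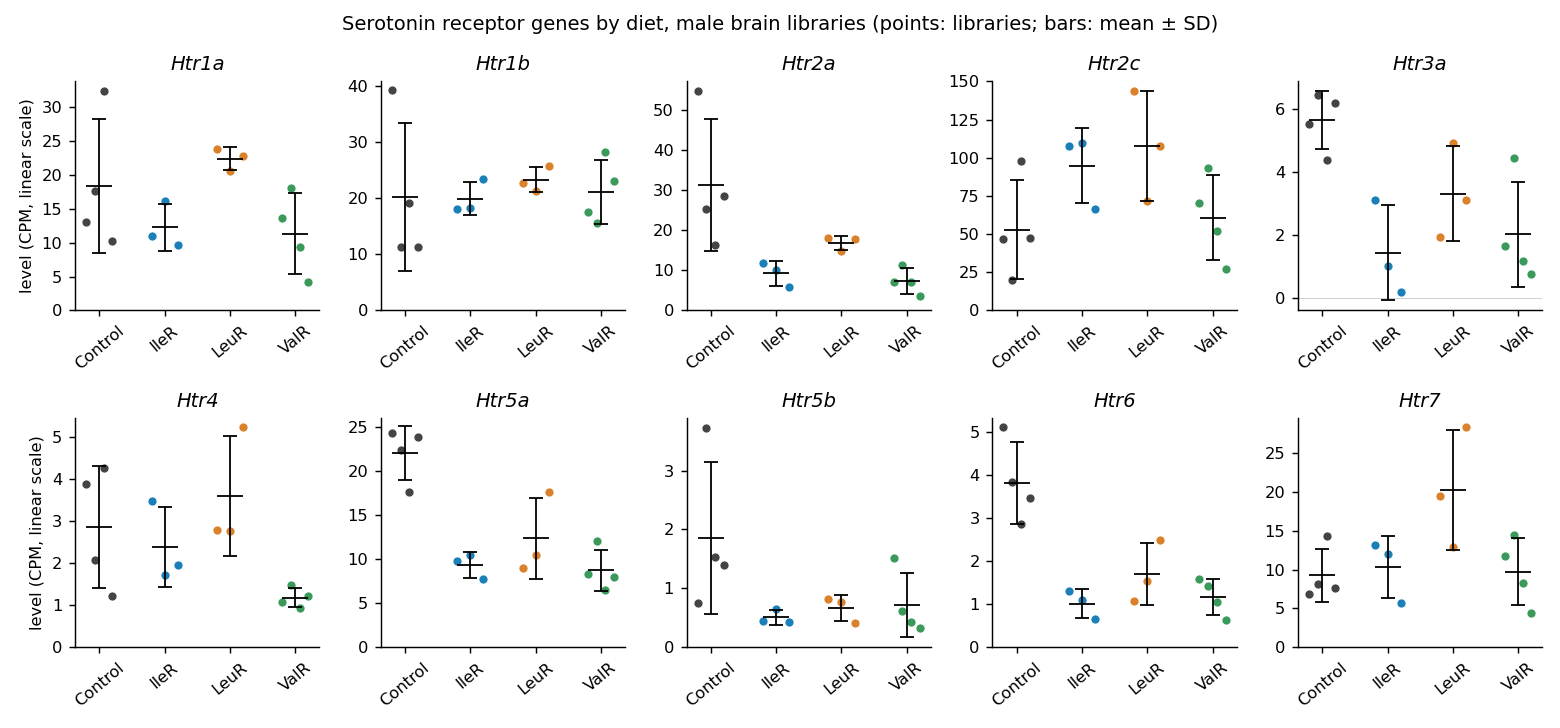
Level of each receptor gene in CPM (linear axis) in the 14 male libraries by diet, with the mean ± SD of each group. For Htr5a and Htr6 all restricted points lie below the Control points, which reach down to 17.7 and 2.86 CPM.

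At an unadjusted p under 0.05, edgeR counted 5 receptors with IleR, 6 with LeuR and 6 with ValR, where all genes gave 6577, 6003 and 7817 of 22197. With the hindbrain score as a covariate, 0 receptors were called on any diet, and of all genes 3, 11 and 0 were called with IleR, LeuR and ValR. The score did not overlap between male Control and restricted libraries, so this fit extrapolates and cannot separate it from diet. In that fit the log2 fold change of Htr5a was -0.09, -0.04 and 0.06 with IleR, LeuR and ValR, that of Htr6 was -0.52, -0.21 and 0, and that of Htr2a was -1.32 with IleR and -1.57 with ValR (adjusted p = 0.741 and 0.71). Those of Htr5b were -3.25, -2.58 and -3.08 (adjusted p = 0.635, 0.616 and 0.647), and those of Htr1a with IleR and ValR were -1.46 and -1.79 (adjusted p = 0.712 and 0.678), farther from 0 than without the covariate.

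No receptor differed between restricted diets in males (0 of 10 in each of 3 comparisons). Of all genes, 0% were called for IleR against LeuR, 2.75% for ValR against LeuR and 0% for ValR against IleR. At an unadjusted p under 0.05 the counts were 1, 4 and 1 receptors, and 2512, 5294 and 628 of all 22197 genes. Htr4 came nearest, at -1.61 (SE 0.43, adjusted p = 0.0566) for ValR against LeuR, and it was called, with Htr2a, by DESeq2 and by edgeR without ValR 9.

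In females no receptor passed the test on any diet (0 of 10 in each of 6 comparisons by edgeR, and 0 by DESeq2 and limma voom). Of all 20344 genes, 0% were called in each comparison: IleR, LeuR and ValR against Control, IleR against LeuR, ValR against LeuR and ValR against IleR. The number at an unadjusted p under 0.05 was 1, 0, 1, 1, 0 and 0 receptors in that order, and 577, 820, 777, 1250, 1014 and 847 genes. The median log2 fold change of the 10 receptors was 0.05, 0.02 and 0.15 for IleR, LeuR and ValR against Control.

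The 3 receptors that fell in males with both IleR and ValR varied widely within each female diet. Htr5a had a lowest, median and highest level of 7.79, 18.3 and 23.3 CPM in Control, 10.1, 18 and 25.6 in IleR, 6.37, 13.9 and 21 in LeuR, and 12.3, 15.2 and 25.6 in ValR. Htr6 had 0.749, 3.59 and 5.77 CPM in Control, 1.69, 4.02 and 4.67 in IleR, 0.371, 3.61 and 4.02 in LeuR, and 1.18, 3.17 and 5.08 in ValR. Htr2a had 6.97, 39.2 and 54.4 CPM in Control, 8.26, 23.2 and 50.3 in IleR, 2.04, 20.9 and 45.5 in LeuR, and 9.16, 19.6 and 49.7 in ValR. All 4 groups overlapped for each gene.

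Their log2 fold changes against Control for IleR, LeuR and ValR were 0.07, -0.28 and -0.04 for Htr5a (SE 0.28 to 0.29), -0.02, -0.43 and -0.24 for Htr6 (SE 0.47 to 0.49), and -0.38, -0.74 and -0.48 for Htr2a (SE 0.58 to 0.61).

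Against Control, the lowest female p-value belonged to Htr1b with IleR, at a log2 fold change of -0.83 (SE 0.3, unadjusted p = 0.0122, adjusted p = 1). IleR held 10.7, 14.9, 15.2, 21.1 and 11.3 CPM, below the Control median of 24 but overlapping the Control range of 17.3 to 44.2 CPM. Htr5b with ValR came next, at 1.48 (SE 0.6, unadjusted p = 0.0214, adjusted p = 1), and its ValR range of 0.93 to 6.38 CPM overlapped that of Control, 0.3 to 2.05 CPM.

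The other female receptors gave smaller differences. Htr2c had medians of 49.6, 45.4, 51.3 and 65.5 CPM in Control, IleR, LeuR and ValR, Htr1a 14.7, 17.1, 20.5 and 21, Htr7 6.51, 10.3, 7.84 and 10.7, Htr3a 4.94, 5.28, 3.67 and 5.26, and Htr4 2.25, 2.04, 2.89 and 3.47. Their log2 fold changes against Control lay between -0.3 and 0.58.

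**Figure D3:**
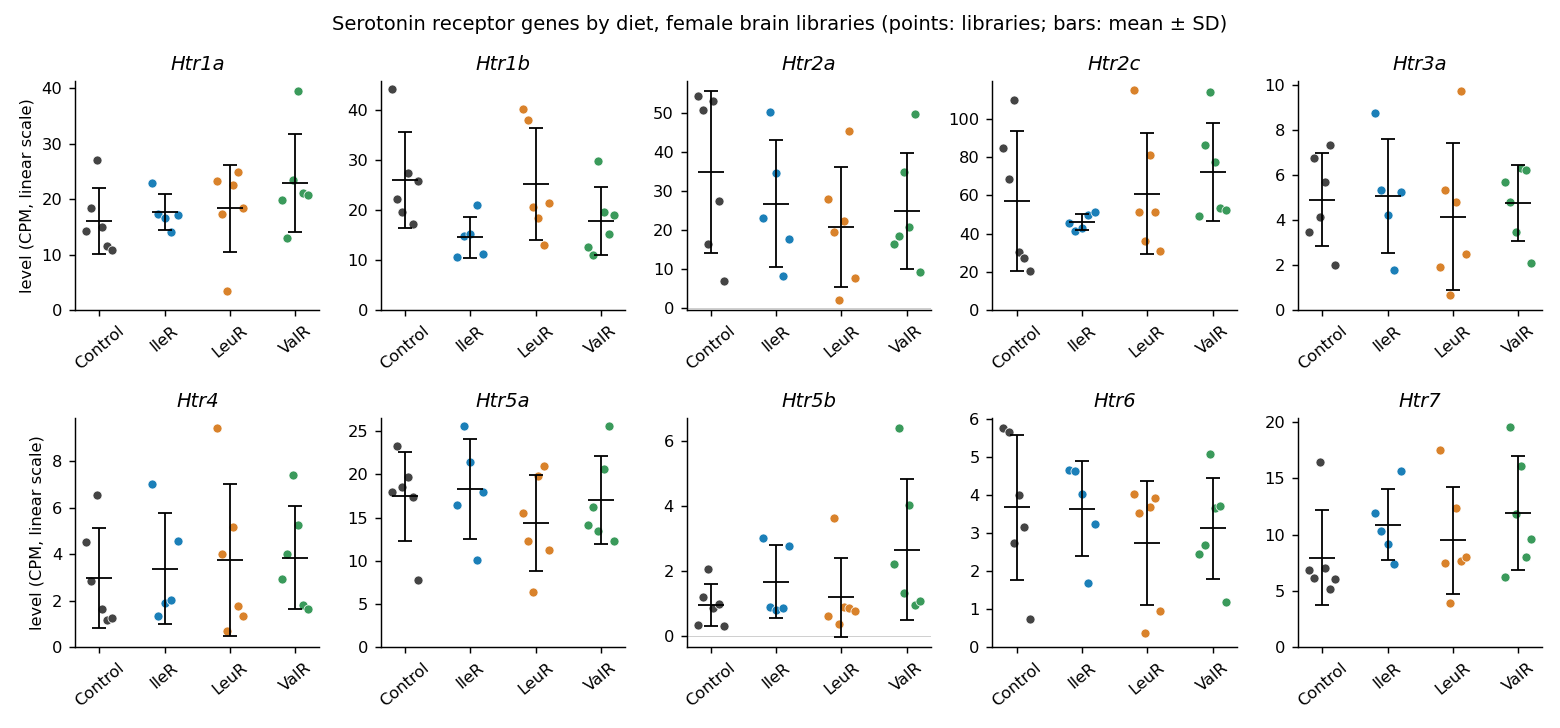
Level of each receptor gene in CPM (linear axis) in the 23 female libraries by diet, with the mean ± SD of each group. The ranges of all 4 diets overlap for Htr5a, Htr6 and Htr2a, and single libraries such as LeuR 45 lie near the bottom.

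The difference between the sexes itself was tested as the male minus the female change in 1 fit of all 37 libraries. No receptor passed for IleR, LeuR or ValR, where 0.0979%, 0.00445% and 4.25% of 22465 genes did. At an unadjusted p under 0.05 there were 4, 0 and 4 receptors, and 4280, 2911 and 5835 genes. Htr5a and Htr5b came nearest with ValR, at a difference of log2 fold changes of -1.31 (SE 0.41, adjusted p = 0.0557) and -2.87 (SE 0.9, adjusted p = 0.058), and DESeq2 called both. So the falls seen in males were not shown to be particular to males.

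**Figure D4:**
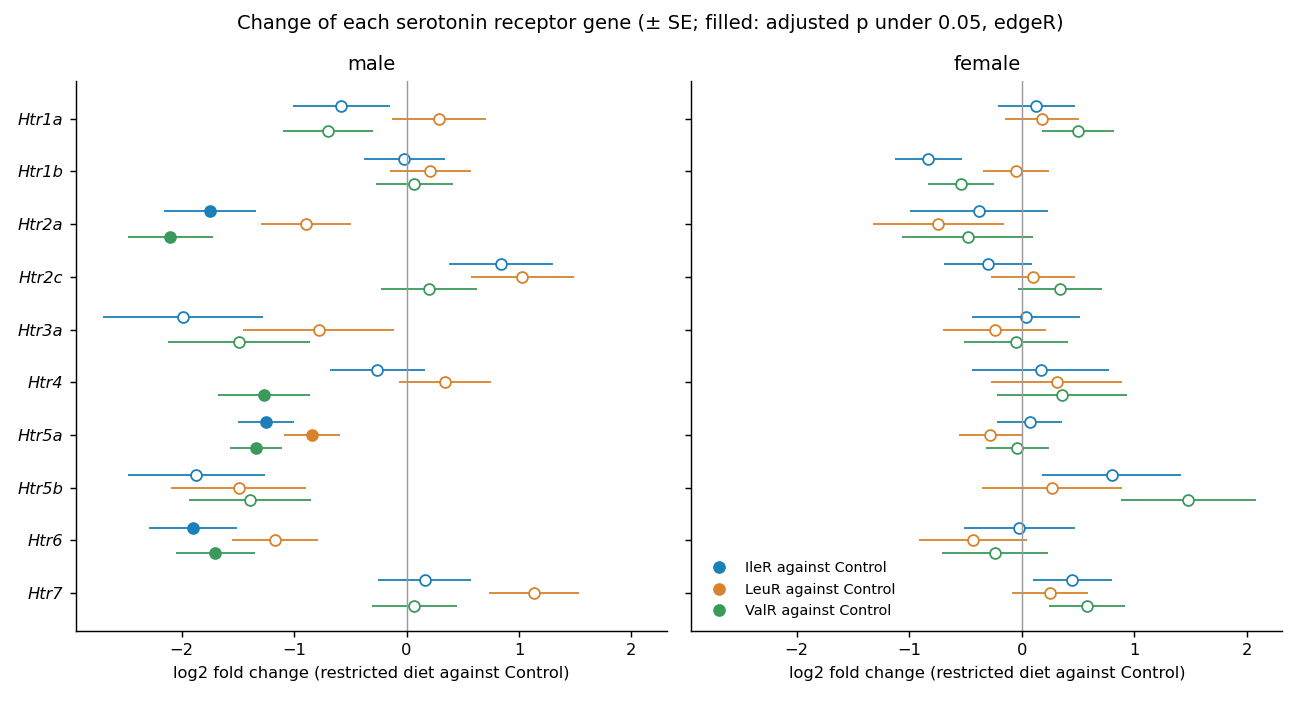
Log2 fold change of each receptor gene against Control (x axis; bars, SE) for IleR, LeuR and ValR in males and females, with filled points where edgeR's adjusted p is under 0.05. The 8 filled points are all male and negative, between -2.1 and -0.84.

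Hindbrain content varied among female libraries too, in each diet. The summed cerebellum markers split them into 15 libraries at 20 to 87.4 CPM and 8 at 871 to 4100 CPM, and the 8 were 2 of each diet (Control 29 and 30, IleR 40 and 41, LeuR 45 and 48, ValR 31 and 36). These are sets read from the data, not groups of the study, and are described with no test between them. The median of the 8 was lower than that of the 15 for 9 receptors, namely Htr2a (8.71 and 27.9 CPM), Htr4 (1.5 and 4.51 CPM), Htr6 (1.44 and 3.92 CPM), Htr3a (2.33 and 5.35 CPM), Htr2c (39.7 and 68.7 CPM), Htr7 (6.83 and 11.8 CPM), Htr5a (11.8 and 18.6 CPM), Htr1a (15.4 and 21.1 CPM) and Htr5b (0.818 and 1.18 CPM). It was almost equal for Htr1b (19.8 and 19.7 CPM). The ranges overlapped for all 10 receptors.

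Because of this split, receptor levels and 3 tissue scores (hindbrain, choroid plexus and striatum, the last 2 as mean log2 CPM of their lists) were related within each set, in 60 relations with adjustment over all 60, of which 11 passed by r. Among the 8 libraries, Htr6, Htr2a, Htr5a and Htr3a went down as the hindbrain score went up. For Htr6, r was -0.96 and Spearman's rho -1 (exact permutation p = 2.48e-05 and 4.96e-05, adjusted 0.00149 and 0.00298). For Htr2a, r was -0.97 and rho -0.98 (exact permutation p = 0.000124 and 0.000397, adjusted 0.00372 and 0.00794), and for Htr5a, r was -0.92 and rho -0.93 (exact permutation p = 0.000397 and 0.00223, adjusted 0.00794 and 0.0187). Without the 2 libraries farthest from the median score r was -0.98, -0.92 and -0.87, and only Htr6 still passed (adjusted p = 0.0417, 0.0694 and 0.129 by exact permutation). For Htr3a, r was -0.92 (exact permutation, adjusted p = 0.0217), while its rho of -0.76 did not pass (exact permutation, adjusted p = 0.116). In the same 8 libraries Htr6 and Htr5a rose with the striatal score, both at r = 0.86 (exact permutation, adjusted p = 0.0217 and 0.0247), and neither passed without the 2 farthest libraries (exact permutation, adjusted p = 0.246 and 0.461).

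Among the 15 libraries with little cerebellum, 5 relations passed. Htr6 went down with the hindbrain score, at r = -0.66 (permutation test, adjusted p = 0.0452), and Htr5a with the choroid plexus score, at r = -0.73 (permutation test, adjusted p = 0.019). Neither passed by rho (permutation test, adjusted p = 0.107 and 0.058) or without the 2 farthest libraries (permutation test, adjusted p = 0.456 and 0.129). Htr7 and Htr2c rose with the hindbrain score, at r = 0.77 and rho = 0.79 (permutation p = 0.00068 and 0.00075, adjusted 0.0102 and 0.0112) and at r = 0.73 and rho = 0.76 (permutation p = 0.00204 and 0.00178, adjusted 0.019 and 0.0178). Without the 2 farthest libraries r was 0.73 and 0.69 and neither passed (permutation test, adjusted p = 0.0694 and 0.0708). These rises are within the 15 libraries, whose medians of Htr7 and Htr2c were above those of the 8. Among the 8, r of Htr7 and Htr2c with the hindbrain score was -0.53 and -0.23, and neither passed (exact permutation, adjusted p = 0.279 and 0.673). Htr1b rose with the striatal score, at r = 0.76 and rho = 0.74 (permutation p = 0.00161 and 0.00249, adjusted 0.019 and 0.0187), and this held without the 2 farthest libraries (r = 0.92, permutation p = 5e-05, adjusted 0.003). Among the 8 libraries the sign of this relation was the opposite, at r = -0.68 and rho = -0.79, and it did not pass (exact permutation, adjusted p = 0.138 and 0.107). No receptor was called for diet in these females, and the part of region in the male differences was not tested.

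**Figure D5:**
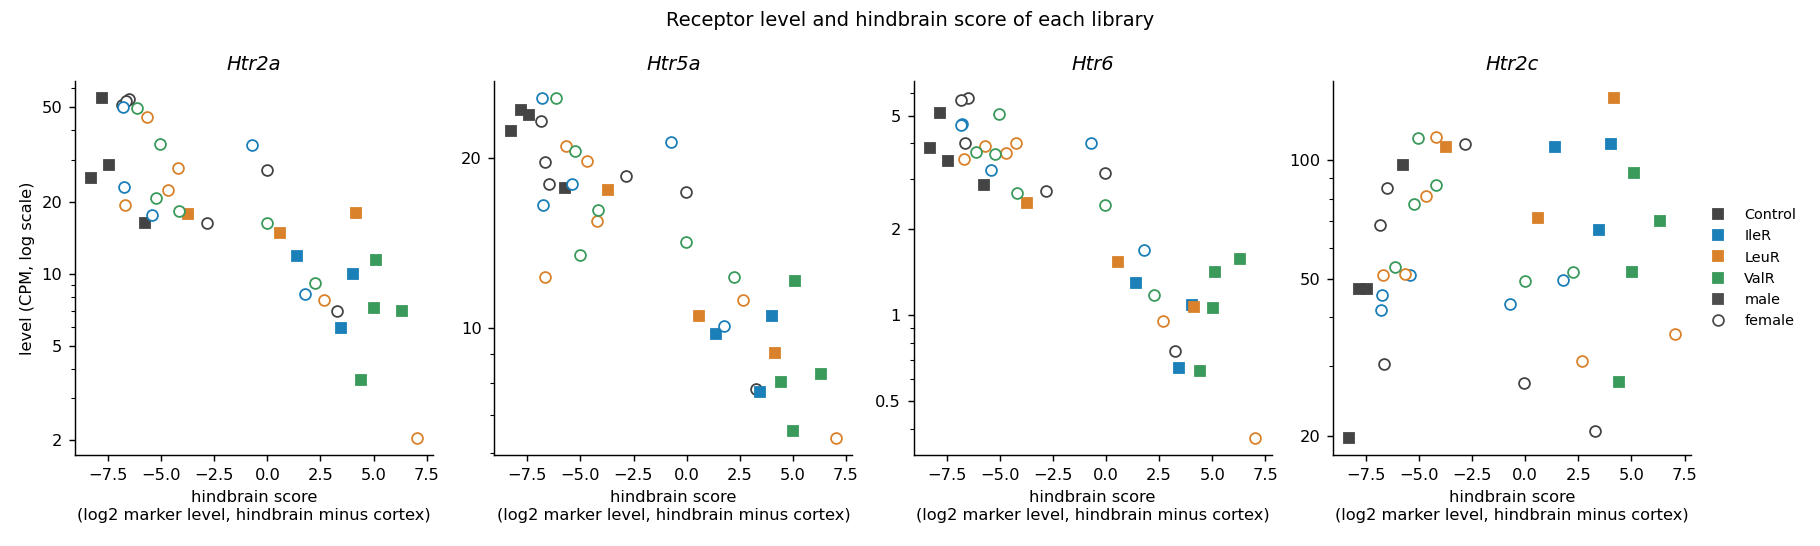
Level of Htr2a, Htr5a, Htr6 and Htr2c in CPM (log axis) against the hindbrain score of the library (difference of mean log2 marker levels) in 14 male (filled squares) and 23 female (open circles) libraries, coloured by diet. Male Control squares lie at scores of -8.28 to -5.74 and restricted males at -3.72 to 6.33, while females lie at -6.83 to 3.26 in Control, -6.81 to 1.77 in IleR, -6.68 to 7.03 in LeuR and -6.13 to 2.25 in ValR.

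Of 4 other serotonin receptor genes, Htr1d and Htr1f were at 0.613 and 0.439 CPM per kb in males and 0.608 and 0.78 CPM per kb in females, near the scarcest of the 10. Htr1f, an inhibitory receptor, fell in males with IleR (-1.64, SE 0.48, adjusted p = 0.0353) and ValR (-1.54, SE 0.44, adjusted p = 0.0225), from 0.764 to 3 CPM in Control to 0.372 to 0.753 and 0.354 to 1.01 CPM. Its LeuR value was -0.7 (adjusted p = 0.353). Htr1d was called on no diet, and Htr2b and Htr3b held at most 5 and 2 counts in any library, too few for a fold change.

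Of 13 genes of serotonin synthesis, transport and breakdown, 3 rose in males with IleR, 3 with LeuR and 1 with ValR, and none fell, where 15.3%, 10.1% and 23.5% of all genes were called in either direction. Slc6a4, the serotonin transporter, rose with IleR (log2 fold change 6.4, SE 1.83, adjusted p = 0.0309) and LeuR (6.2, SE 1.83, adjusted p = 0.0475), from a mean of 0.165 CPM in Control to 14.7 and 12.8 CPM, and stood at 2.49 CPM in ValR (adjusted p = 0.151). Tph2, the rate-limiting enzyme of neuronal serotonin synthesis, had means of 0.479 CPM in Control, 20.6 in IleR, 21.1 in LeuR and 3.91 in ValR, and passed with IleR alone (adjusted p = 0.0499, 0.0617 and 0.22). Maoa, which breaks serotonin down, rose on all 3 diets by 0.72, 0.64 and 0.6 (adjusted p = 0.0121, 0.0308 and 0.0153).

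Of 7 identity genes of raphe neurons, 3, 3 and 2 rose with IleR, LeuR and ValR, and 1, 0 and 1 fell, beside 15.3%, 10.1% and 23.5% of all genes called in either direction. Lmx1b, a transcription factor of serotonin neurons, rose from a mean of 0.204 CPM to 5.15, 4.76 and 7.04 CPM, and Fev from 0.107 CPM to 2.02 and 1.44 CPM with IleR and LeuR (adjusted p = 0.012 and 0.0332). Insm1 fell with IleR and ValR (-1.71 and -2.47, adjusted p = 0.00879 and 0.000388). Serotonin neurons lie in the brainstem, whose markers were higher in 9 of the 10 restricted males than in every Control library, and the part of region in these values was not tested.

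Of 25 G proteins, effectors and channels that serotonin receptors use, 3 rose and 8 fell with IleR, 1 and 8 with LeuR, and 3 and 10 with ValR. Of all genes, 15.3%, 10.1% and 23.5% were called in either direction, and 8.68%, 6.33% and 12.4% were lower. The 3 of lowest adjusted p were Adcy2, an adenylyl cyclase, Plcb1, the phospholipase C that Gq drives in forebrain, and Plcb3. Adcy2 fell by 1.48, 1.03 and 1.71 on the log2 scale (adjusted p = 0.000975, 0.00811 and 9.15e-05) and Plcb1 by 1.67, 1.54 and 1.69 (adjusted p = 0.0013, 0.00452 and 0.000233). Plcb3 rose with IleR and ValR, by 0.66 and 1.06 (adjusted p = 0.0179 and 0.000421).

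Htr2c messages are edited by adenosine deaminases, and of the 3 genes of this family Adarb1 rose with IleR (0.37, SE 0.1, adjusted p = 0.0225) and ValR (0.46, SE 0.09, adjusted p = 0.00276), Adar fell with ValR (-0.35, SE 0.11, adjusted p = 0.0324) and Adarb2 was not called. Gene counts do not show editing itself.

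Pairs of receptors differed in how closely they followed each other from library to library, described here with no test. Htr2a, Htr5a and Htr6 had pairwise Pearson r of log2 CPM of 0.84 to 0.93 over 23 female libraries and of 0.86 to 0.93 over 14 male libraries. Htr3a had r with these 3 of 0.75 to 0.79 in females and 0.76 to 0.83 in males. Htr2c and Htr4 had r of 0.81 and Htr4 and Htr7 of 0.74 in females, and in males Htr1a and Htr7 had r of 0.79 and Htr2c and Htr7 of 0.76. Htr1b had its lowest r with Htr5b, at -0.62 in males and -0.43 in females. These r were taken over all libraries of a sex, which differed in regional make-up, and the part of region in them was not tested.

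Genes whose levels were most like those of a receptor were sought among 13879 genes in females and 13988 in males whose log2 CPM averaged 1 or more. Pearson r was taken over all 23 female or all 14 male libraries, which differed in regional make-up. The part of region in these r was not tested. For Htr6 the nearest in females were Shisa7, Erf and Rab40b (r = 0.982, 0.981 and 0.979), for Htr2a Il34, Lzts1 and Gsg1l (0.976, 0.974 and 0.973), and for Htr5a Olfm2, Atcay and Prkar1b (0.958, 0.957 and 0.956). In males the nearest were Atl1 for Htr6 (0.974), Ndrg4 for Htr2a (0.971), Lrrc4c for Htr5a (0.977) and Gnas for Htr7 (0.967), the last a gene of the signalling list. For Htr1b in females it was D430036J16Rik (0.874), the antisense gene that overlaps it, whose reads cannot be told from those of Htr1b if counting did not use strand.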

How the data were processed

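Brain RNA of 37 of 47 labelled libraries was analysed, those with a column in the count tables used here, and 10 male libraries were not analysed here. The authors aligned reads to GRCm38.p5 and deposited expected counts per Ensembl gene, not normalized. Their methods say that libraries standing clearly apart in a principal component analysis had been dropped. The aligner and the use of strand in counting were not given in the sources used here, and the labels name both polyA enrichment and a stranded total RNA kit, where the methods name the kit alone. The submitters' processing notes name R 3.4.3, edgeR and limma. The authors' tables of fold changes and p-values were not used.

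Expected counts were rounded and fitted in R 4.3.3 with edgeR 4.0.16 (TMM, quasi-likelihood test, Benjamini-Hochberg adjustment over all genes tested, threshold 0.05), 1 fit per sex and 1 of both sexes. A gene was kept if, in some group, no library was below 1 count. CPM was scaled by TMM, and log2 CPM used a prior count of 2. Alternatives included limma 3.58.1 voom, DESeq2 1.42.0, scaling, filters, covariates and leaving out each library. Scores were tested by permutation, exact under 10 values and with 100000 resamples otherwise (scipy 1.17.1 and numpy 2.4.6). Female correlations were computed within 2 sets of libraries, not pooled as planned, because cerebellum markers split them. Gene names came from GENCODE M21, which holds 52135 of the 55416 identifiers. Promoters came from the RefSeq table of GRCm38.p6, with entries for 7 of 10 receptors.

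The members and lists were chosen with earlier results of these data known. Named genes were all 10 receptors, genes of the serotonin lists, the 3 signalling genes and the 3 editing enzymes of lowest adjusted p in males, and the 3 genes most like each receptor by Pearson r. The labels do not tie libraries to animals, while the study gives its group sizes in mice, and p-values measure the spread between these libraries. No 2 libraries of a group agreed within counting noise, since the smallest chi-square per degree of freedom over 73 pairs was 8.43. The level of 1 marker gene is not reported here.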

Additional observations from a re-analysis of the deposited data

Results flagged for a closer look

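Among 60 groups of 4 to 6 libraries, 1 library stood apart from its group for 4 receptor levels, all in females, where chance alone marks about 1 group in 20. Htr1a was 3.46 CPM in LeuR 45, the lowest of 6 libraries, where the next was 17.4 CPM. Htr5a was 7.79 CPM in Control 30, the lowest of 6, where the next was 17.4 CPM. These 2 libraries had the highest hindbrain scores of all female libraries, 7.03 and 3.26. Htr5b was 3.63 CPM in LeuR 44, the highest of 6, where the next was 0.875 CPM. Htr7 was 16.5 CPM in Control 27, the highest of 6, where the next was 7.05 CPM. The causes were not tested.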

How the results depend on the processing

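No paired analysis was possible because no library number occurs in more than 1 group. The comparisons were recomputed under other scalings, filters, tests and covariates and without each library, and the causes of the changes were not tested. The count of receptors called in males was 5 with DESeq2 for IleR, and without single libraries 2 to 4 for IleR and 3 to 5 for ValR. For LeuR it was 0 with library totals, 0 with only the 2 groups fitted, 2 with limma voom and 3 with DESeq2, and it ranged from 0 to 4 as single libraries were left out, with 4 (Htr2c, Htr5a, Htr6 and Htr7) without Control 4, 2 without LeuR 21, and 0 without any 1 of Control 1, Control 3, Control 5, IleR 13, IleR 14, LeuR 19, LeuR 20, ValR 7 or ValR 12. With the hindbrain score as a covariate it was 0 on each diet. For ValR against LeuR it was 2 with DESeq2, and 0 to 2 without single libraries, with 2 without ValR 9 and 1 without Control 4. Receptors with a sex difference numbered 1 (Htr5a) with DESeq2 for IleR, and 0 to 1 without single libraries, the 1 being without female IleR 41. For ValR they numbered 2 with DESeq2, 1 with edgeR's filterByExpr and 2 with the choroid plexus score as a covariate, an alternative chosen after seeing the data, and 0 to 2 without single libraries, with 2 without female LeuR 45 or ValR 36 and 1 without male Control 4, male ValR 9 or female Control 26, Control 27, IleR 41, LeuR 44 or LeuR 47. With the choroid covariate the LeuR count in males stayed 1, with Htr5b called in place of Htr5a. Of 60 relations with tissue scores 11 passed, and 2 without the 2 farthest libraries.

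Some log2 fold changes of receptors that were not called changed sign. Htr1b with IleR was 0.11 with library totals, 0.2 with limma voom, 0.25 with the hindbrain covariate and 0.52 with the choroid covariate, and -0.22 to 0.52 without single libraries. Htr7 with ValR was -0.01 with limma voom and -0.19 to 0.37 without single libraries. With the hindbrain covariate Htr2c was -0.22 with IleR and -1.14 with ValR, Htr4 0.72 with IleR, Htr1a -0.34 with LeuR, and Htr3a 0.49 with LeuR and 0.59 with ValR. In that fit a called receptor, Htr5a with ValR, was 0.06. Htr4 with IleR was 0.24 with the choroid covariate. Without single libraries Htr7 with IleR ranged from -0.06 to 0.46, Htr4 with LeuR from -0.03 to 0.6, Htr1b with ValR from -0.13 to 0.61 and Htr2c with ValR from -0.08 to 0.67. Of all recomputed log2 fold changes of the 10 receptors in males, 232 of 270 under other settings and 380 of 420 without single libraries kept their direction and their side of the threshold. Calls of Htr6 and Htr5a with IleR and ValR and of Htr2a with ValR were lost with the hindbrain covariate and under no other alternative run. Male Control and restricted libraries did not overlap in that score, so the fit with it cannot separate it from diet. Depth limits the scarce receptors: Htr4, Htr5b and Htr6 rested on 15 to 93, 5 to 63 and 10 to 75 counts per male library.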
